A study of Rattus norvegicus with 18 samples.

Results

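The hippocampus of rats under chronic immobilization stress was compared with that of handled rats on 6 expression arrays, those titled for the hippocampus among the 18 of the study. There were 3 stress and 3 handled arrays, and the same design was repeated in the amygdala (6 arrays) and the cortex (6 arrays). Immobilization means repeated restraint, here on a schedule not given in the sources used, and the control rats were handled without stress. All samples were total RNA from dissected tissue, with strain, age and sex of the rats not given in the sources used here. Nothing in the labels tells whether the 3 arrays of a group are separate animals, pools or repeats of 1 RNA, so the p-values cover only the array-to-array spread, which may be technical. It is likewise not given whether the regions came from the same rats.

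The hippocampus is built from pyramidal neurons of the CA fields and granule cells of the dentate gyrus, wired in a loop that serves memory of places and events. It also carries both corticosteroid receptors at high levels and takes part in shutting off the hormonal stress response. Long-lasting stress is known for its effects on this tissue, among them shrinkage of the dendrites of CA3 pyramidal cells and fewer newborn granule cells. An array of bulk tissue cannot tell fewer cells of a type from less RNA per cell.

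Each probe set, a group of short probes for a transcript, has an intensity on every array, and changes are given as the difference between the stress and handled means of log2(intensity + 16), with the standard error (SE). The offset understates the change of a dim transcript. A probe set was called when the adjusted p from limma was below 0.05 over all 18625 probe sets tested. Array medians ran between 49.1 and 56.4 over the study, and the mean Spearman correlation of a hippocampus array with the others of its group lay between 0.965 and 0.976. The 3′ over 5′ log2 ratio of the hexokinase control probe sets, a sign of RNA integrity, was 1.30 ± 0.18 (SD, n = 3) on the stress arrays and 1.12 ± 0.12 on the handled arrays. For GAPDH it was 0.23 ± 0.13 and 0.26 ± 0.10, and for beta-actin 1.61 ± 0.31 and 1.55 ± 0.23. The part of RNA integrity in the results was not tested. Because the source field of every array reads amygdala, the titles were checked against transcripts that mark regions. On the handled arrays the granule cell transcription factor Prox1 was higher in hippocampus than in cortex by 2.76 on the log2 scale (adjusted p = 2.37e-16). There 13 of 15 neocortex markers were called lower, where 2537 of all 18625 probe sets were called lower. Of all genes tested, 13.1% were called higher in hippocampus than in cortex, against 5 of 10 markers of CA2 and CA3 pyramidal cells, 3 of 6 of dentate granule cells and 21 of 23 of oligodendrocytes, the cells that make myelin. The markers of CA1 pyramidal cells, which set that field apart within the hippocampus, were mixed against cortex. Of 6, Fibcd1 (2.35) and Gpr161 (1.35) were called higher in hippocampus, and Ccn3 (-1.62), Mpped1 (-1.30) and Wfs1 (-0.53) lower.

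Chronic stress was accompanied by a small set of changes in the hippocampus. Of the 18625 probe sets 67 were called (0.36%), of which 48 were lower and 19 higher after stress. They included 45 named genes, 30 lower and 15 higher. The calls that stood out included falls in 4 of 6 markers of CA1 pyramidal neurons and a rise of transthyretin. The marker lists were drawn up with earlier results of these data known. Haemoglobin and growth hormone transcripts were lower. There were modest falls among myelin genes, with 3 of 23 oligodendrocyte markers called near the threshold and none of these calls left after median centring. Of the 4 CA1 markers only Gpr161 was called higher in handled hippocampus than in handled cortex. Fibcd1, the CA1 marker with the largest such excess, was not called after stress. Changes were mostly moderate, and 5 of the 67 reached 2-fold. At an unadjusted p under 0.05, 10.9% of probe sets differed. The split of directions was not stable. Centring each array on its median gave 50 calls, 25 higher and 25 lower. Leaving out handled array 3 gave 70 calls, 34 higher and 36 lower. Quantile normalization kept the split, with 64 calls, 19 higher and 45 lower. The count fell to 27 without stress array 2, to 43 without handled array 1, to 39 without handled array 2 and to 20 when the hippocampus arrays were fitted alone. Of the 45 genes 6 (Ttr, Hbb, Lpar1, Pou3f1, Wfs1 and Gh1) were called under every alternative that tested them.

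**Figure D1:**
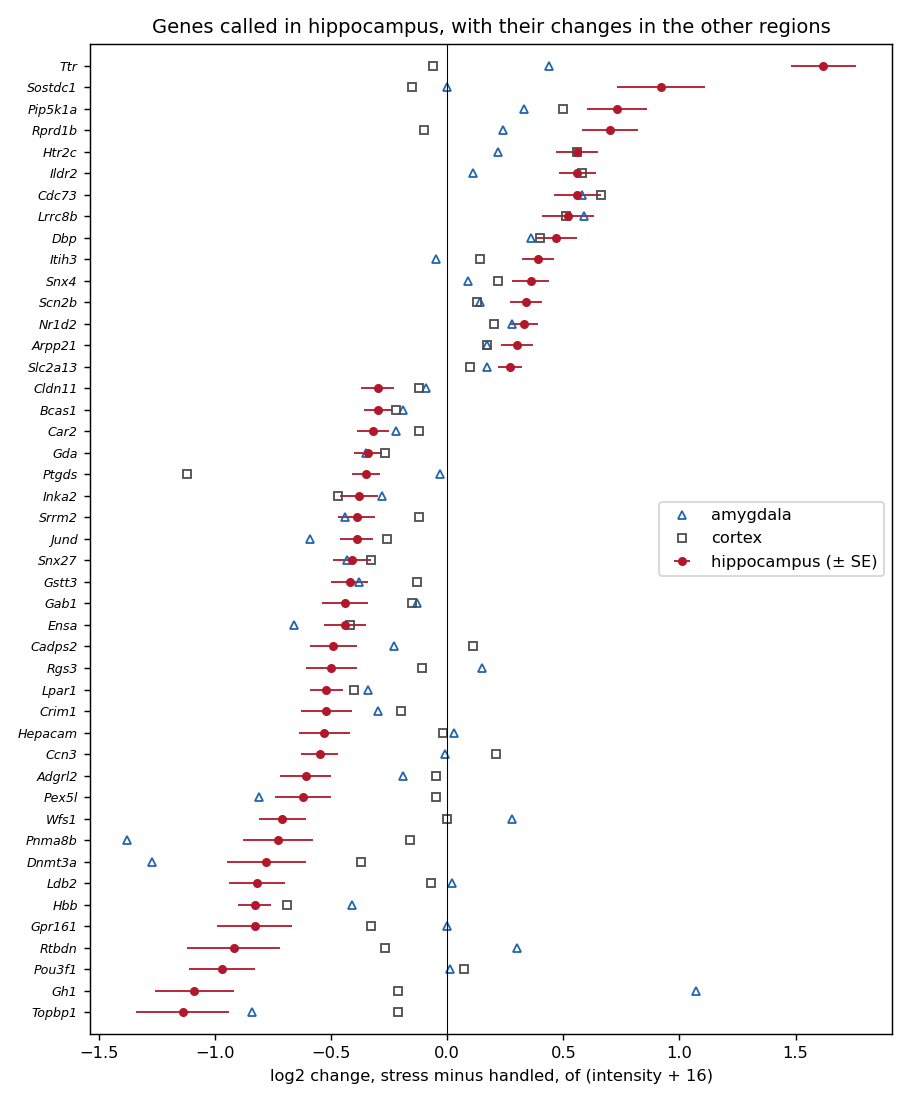
Log2 change (stress minus handled, of intensity + 16) of the 45 genes called in hippocampus. Red points with bars are hippocampus changes ± SE, triangles the changes of the same probe sets in amygdala and squares those in cortex. Ttr stands highest at 1.62 and Topbp1 lowest at -1.14, and Gh1 lies below 0 in hippocampus and at 1.07 in amygdala.

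CA1 pyramidal neurons, the output cells of the hippocampal loop, are marked by Wfs1, Pou3f1, Ccn3, Gpr161, Mpped1 and Fibcd1. These 6 were all measured, and 4 fell after stress (Pou3f1, Gpr161, Wfs1 and Ccn3) while none rose. Over all 10256 genes tested, read by their brightest probe set, 0.263% were called lower and 0.137% higher. The median log2 change of the CA1 markers was -0.63, beside 0.006 for all genes. The list was drawn up with earlier results of these data known, so these shares describe it and are no test. Their summed intensity lay between 1071 and 1281 on the stress arrays and between 1716 and 1776 on the handled arrays.

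Pou3f1, a POU-domain transcription factor, had intensities of 90.5, 82.6 and 90.5 on the stress arrays and 172, 177 and 218 on the handled arrays. Every stress array lay well below every handled array, and the gene fell by 0.97 on the log2 scale (SE 0.14, adjusted p = 7.14e-04). Wfs1 encodes wolframin, a membrane protein of the endoplasmic reticulum that is strongly made in CA1. It measured 100, 120 and 113 under stress and 194, 198 and 184 in handled rats, and fell by 0.71 (SE 0.10, adjusted p = 3.25e-04), again without overlap. Ccn3, a secreted matricellular protein, measured 198, 239 and 203 against 290, 331 and 336. That is a fall of 0.55 (SE 0.08, adjusted p = 5.20e-04) with the groups apart.

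Gpr161, an orphan receptor of the primary cilium, measured 149, 240 and 156 under stress and 347, 326 and 311 in handled rats. Stress array 2 lay nearer to the handled arrays than the other stress arrays did, and the log2 change was -0.83 (SE 0.16, adjusted p = 0.0153). A second probe set of Gpr161 was also called, at -0.73 (adjusted p = 0.00792). The remaining markers were not called. Mpped1 measured 444, 513 and 479 against 608, 651 and 607 (log2 change -0.37, adjusted p = 0.0701), and Fibcd1, the CA1 marker with the largest excess in hippocampus over cortex, 88.8, 86.8 and 82.3 against 106, 92.0 and 83.0 (-0.10, SE 0.28, adjusted p = 0.938). Over the 15 alternative settings and left-out arrays, 3 or 4 of the markers were called lower each time. Wfs1 and Pou3f1 were among them in all 15, Ccn3 was lost when the hippocampus arrays were fitted alone, and Gpr161 was lost without a variance trend, without stress array 1 or 3 and without handled array 1 or 2.

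In the other hippocampal fields no marker was called. None of 10 markers of CA2 and CA3 pyramidal cells was called, 7 lay above 0 and their median log2 change was 0.13. In limma without adjustment, 4 of the 10 were higher and 1 lower at a p under 0.05. Cpne4, a calcium-dependent membrane-binding protein, measured 1361, 1418 and 1301 under stress against 1110, 1129 and 1190 (log2 change 0.25, adjusted p = 0.303). Rgs14, a regulator of G-protein signalling found in CA2, had a log2 change of 0.23 (adjusted p = 0.354). Of the 6 markers of dentate granule cells none was called and 3 lay above 0, with a median of 0.04 and 1 gene at an unadjusted p under 0.05. Prox1 was at 648, 668 and 669 against 617, 588 and 606 (0.13, adjusted p = 0.65), and Calb1, which encodes the calcium buffer calbindin, had a log2 change of -0.10 (adjusted p = 0.625).

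**Figure D2:**
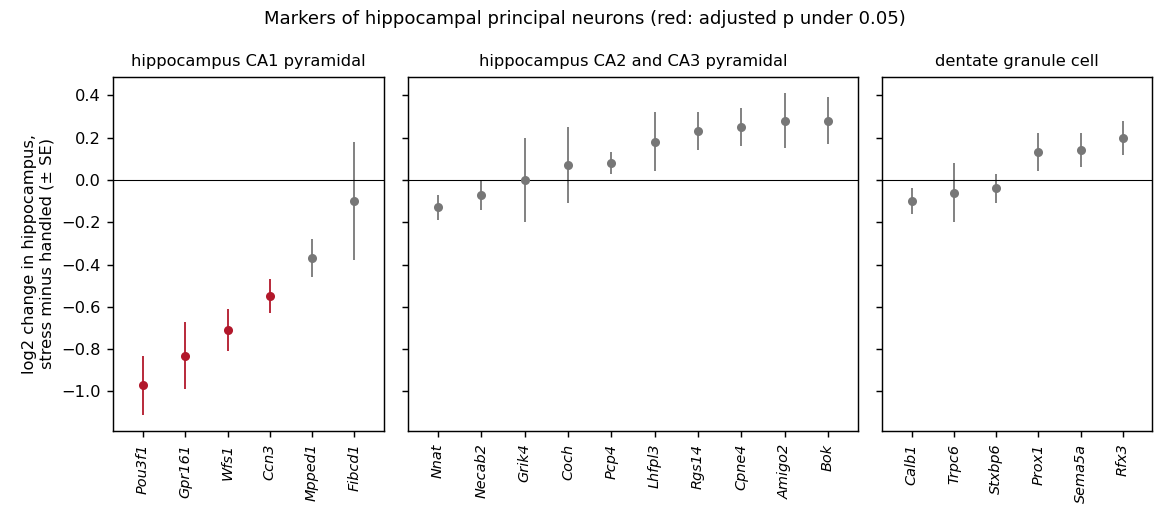
Log2 change in hippocampus (stress minus handled, ± SE) of the tested markers of CA1 pyramidal, CA2 and CA3 pyramidal and dentate granule cells. Red points passed an adjusted p of 0.05. Only the CA1 panel holds red points, at Pou3f1, Gpr161, Wfs1 and Ccn3, and all 6 of its points lie below 0.

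Wfs1 and Ccn3 are also made in amygdala and cortex, and Pou3f1 in cortex, where their stress changes could be compared. The test of the difference between the hippocampus and cortex changes called 16 probe sets of 18625 (0.0859%), and that between hippocampus and amygdala 9 (0.0483%). Wfs1 was called in both. Its change in hippocampus lay below that in cortex by 0.71 (SE 0.14, adjusted p = 0.0325) and below that in amygdala by 0.99 (SE 0.14, adjusted p = 0.00142). Pou3f1 differed from cortex by -1.04 (adjusted p = 0.0326), and from amygdala by -0.98 (adjusted p = 0.0625). In amygdala it was dim, at 30.4 ± 2.73 (SD, n = 3) under stress and 30.5 ± 8.28 in handled rats, so a fall there would be hard to see. Ccn3 differed from cortex by -0.76 (adjusted p = 9.94e-04) and from amygdala by -0.54 (adjusted p = 0.0625). For Gpr161 neither difference was called (adjusted p = 0.862 and 0.245).

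Other lower genes with a place in neuronal signalling were Ldb2, a cofactor of LIM-domain transcription factors, Adgrl2 (latrophilin 2, an adhesion receptor at synapses), Pex5l (TRIP8b, an auxiliary subunit of HCN channels) and Cadps2, which primes dense-core vesicles for release. Ldb2 measured 39.1, 37.8 and 31.1 under stress against 82.3, 75.7 and 68.4, a fall of 0.82 (SE 0.12, adjusted p = 6.17e-04). Adgrl2 measured 37.8, 57.8 and 54.2 against 78.3, 79.6 and 93.8, a fall of 0.61 (SE 0.11, adjusted p = 0.00733), while its second probe set stood at -0.13 (adjusted p = 0.855). In the called probe set of both genes every stress array lay below every handled array. Their changes in amygdala and cortex lay between -0.19 and 0.02, but no difference from the hippocampus change was called. The adjusted p in limma was 0.146 against cortex and 0.0625 against amygdala for Ldb2, and 0.39 and 0.447 for Adgrl2. Both were dimmer in handled hippocampus than in handled cortex, at means of 75.5 against 497 for Ldb2 and 83.9 against 470 for Adgrl2. Pex5l fell by 0.62 in hippocampus (adjusted p = 0.0211) and by 0.81 in amygdala (adjusted p = 4.82e-04).

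Transthyretin (Ttr), which carries thyroxine and retinol-binding protein, had the largest change of the called genes. It measured 3408, 3549 and 3274 on the stress arrays and 1038, 1128 and 1138 on the handled arrays. All stress values were at a similar level far above the handled ones, and Ttr rose by 1.62 on the log2 scale (SE 0.14, adjusted p = 4.65e-07). In brain Ttr is made chiefly by the choroid plexus, the secretory epithelium that lies against the hippocampus in the lateral ventricle. Sostdc1, a secreted antagonist of BMP and Wnt signals that the choroid plexus also makes, measured 77.3, 79.7 and 87.3 against 30.6, 40.7 and 35.4 and rose by 0.92 (SE 0.19, adjusted p = 0.0307). The call of Sostdc1 was lost when any 1 of the 6 hippocampus arrays was left out.

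Of 19 markers of choroid plexus and ependyma on the array, 9 were bright enough to be tested and Ttr and Sostdc1 were the 2 called. Of the 9, 6 lay above 0, with a median log2 change of 0.18. Ace, the angiotensin-converting enzyme, measured 44.6, 51.3 and 37.7 against 4.30, 23.5 and 26.7 (0.89, adjusted p = 0.153). Enpp2, which encodes autotaxin, had 0.18 (adjusted p = 0.393), and Aqp1, a water channel of the choroid plexus, -0.58 (adjusted p = 0.521). Among the 10 markers too dim to be tested, the clotting factor gene F5 had 70.5, 73.0 and 62.2 against 35.8, 32.6 and 30.0, chosen here after its values were seen. The summed intensity of all 19 markers was 4724 to 4866 under stress and 2207 to 2361 in handled rats. Without Ttr the sums were 1318 to 1450 and 1168 to 1233, without overlap. They still held the called Sostdc1, F5 and Enpp2, the last with means of 636 under stress and 557 in handled rats. Single probe sets were likewise apart, in either direction, in 14.2% of all tested. Other defining markers were dim, among them Otx2, a transcription factor of this epithelium, at 1.77 to 27.7 over the 6 arrays. How much of the change in Ttr moved with the amount of choroid plexus in a sample was not tested.

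**Figure D3:**
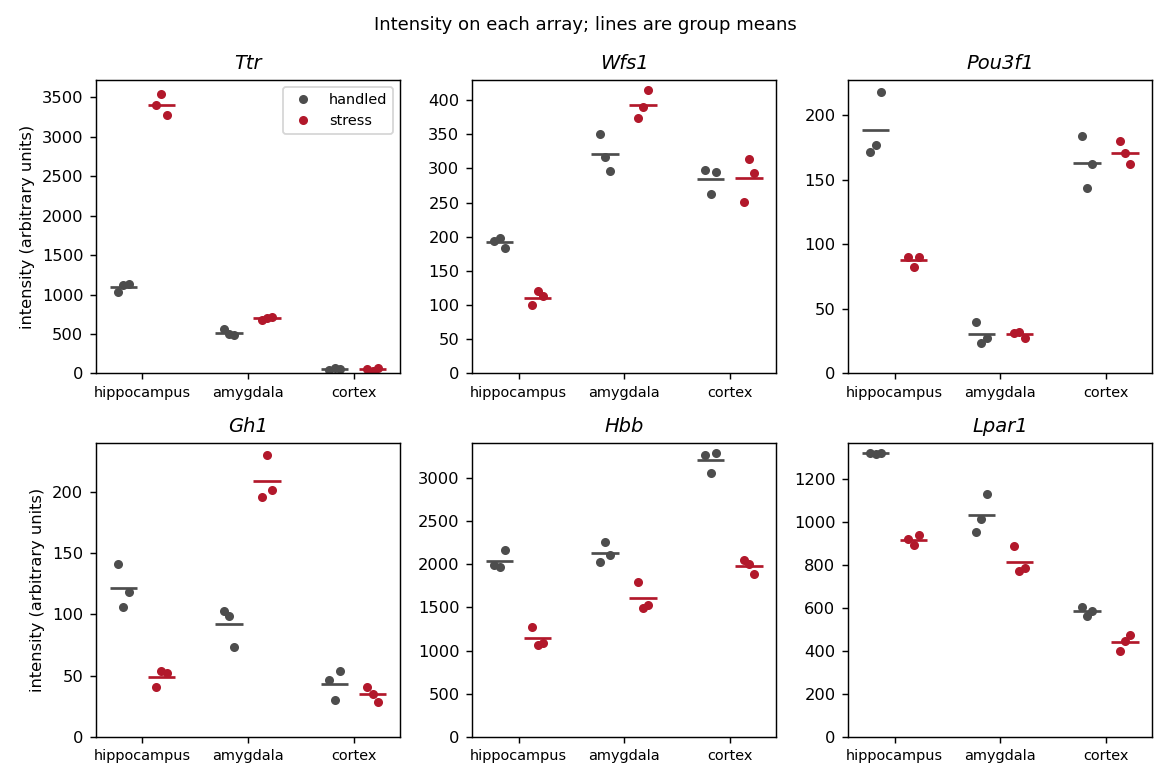
Intensity on each of the 18 arrays for Ttr, Wfs1, Pou3f1, Gh1, Hbb and Lpar1, with grey points for handled and red for stress arrays and lines at the group means (n = 3). The hippocampus groups are apart in each panel, the amygdala and cortex groups of Pou3f1 overlap, Gh1 is higher under stress in amygdala, and Hbb and Lpar1 are lower under stress in the 3 regions.

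The rise of Ttr was larger in hippocampus than elsewhere. Its handled level was 1102 ± 55.0 (SD, n = 3) in hippocampus, 512 ± 40.6 in amygdala and 54.5 ± 12.8 in cortex. The log2 change was 0.44 in amygdala (adjusted p = 0.126) and -0.06 in cortex (adjusted p = 0.941). The hippocampus change exceeded that in amygdala by 1.17 (SE 0.20, adjusted p = 0.028) and that in cortex by 1.67 (SE 0.20, adjusted p = 7.51e-05). For Sostdc1 neither difference was called (adjusted p = 0.309 and 0.361).

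Growth hormone (Gh1), best known from the pituitary but also transcribed in hippocampus, measured 40.6, 54.0 and 52.0 under stress against 141, 106 and 118 in handled rats. The groups lay far apart, and Gh1 fell by 1.09 (SE 0.17, adjusted p = 0.00211). In amygdala it moved the other way, at 196, 230 and 202 under stress and 103, 99.1 and 73.6 in handled rats, a rise of 1.07 (adjusted p = 8.04e-04). The difference between these changes was -2.16 (SE 0.24, adjusted p = 6.82e-05). Of the other 7 anterior pituitary markers only Lhb was bright enough to be tested, at 0.37 (adjusted p = 0.711), and the pituitary hormone transcripts Pomc and Tshb stayed at or below 15.2 on every hippocampus array. The summed intensity of these 7 in hippocampus was 119 to 149 under stress and 114 to 174 in handled rats, which overlapped. In amygdala it was 196 to 304 under stress and 100 to 170 in handled rats, without overlap, so that the summed level was higher there together with Gh1. The part of these markers in the Gh1 values was not tested. The rest of the growth hormone axis was not called (0 of 7), including Igf1 (-0.19, adjusted p = 0.853) and Igf1r (0.10, adjusted p = 0.797). Nearest were Igfbp5 (-0.22, adjusted p = 0.405), Stat5b (-0.62, adjusted p = 0.447) and Stat5a (0.46, adjusted p = 0.518). With Gh1 counted, 3 of the 8 tested genes were lower at an unadjusted p under 0.05 in limma and none higher. The genes for the growth hormone receptor (Ghr) and for Socs2, an inhibitor of its signalling, were too dim to be tested.

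Haemoglobin transcripts were lower. Hbb, a beta globin gene made in red blood cells, measured 1278, 1067 and 1092 under stress and 1989, 1968 and 2163 in handled rats, and fell by 0.83 (SE 0.07, adjusted p = 4.84e-07). Its probe set is of the kind whose probes can match related sequences, so near-identical globin genes cannot be told apart. Hbb also fell in cortex, by 0.69 (adjusted p = 1.34e-05), and in amygdala, by 0.41 (adjusted p = 0.00251), and neither difference from the hippocampus change was called (adjusted p = 0.932 and 0.181). Alas2, the haem-synthesis enzyme of red cells, had a log2 change of -0.50 (adjusted p = 0.442). The endothelial and mural markers, which line and wrap the vessels, held no call among 14 (2 at an unadjusted p under 0.05 in limma) and had a median of -0.12. The part of blood left in the tissue in these values was not tested. Among all called probe sets, 5 carry several gene symbols each and are not named, and they fell by 0.83 to 1.11. Which transcripts these 5 measure was not examined here.

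Markers of oligodendrocytes were shifted downwards by a small amount. Of 23 tested, 22 lay below 0, the median was -0.21, and 3 fell: Car2, the carbonic anhydrase of myelin-forming cells, Bcas1, a marker of cells starting to myelinate, and Cldn11, the claudin of myelin tight junctions. Without adjustment 14 of the 23 were lower at a p under 0.05 in limma and none was higher. Of all probe sets 10.9% had such a p, in either direction. Of all tested genes 51.7% lay above 0 and 0.263% were called lower. Car2 measured 971, 1022 and 943 against 1223, 1191 and 1259 (log2 change -0.32, SE 0.07, adjusted p = 0.0307). Bcas1 measured 1547, 1348 and 1434 against 1753, 1758 and 1824 (-0.30, SE 0.06, adjusted p = 0.0382). Cldn11 measured 2938, 2779 and 2491 against 3424, 3271 and 3370 (-0.30, SE 0.07, adjusted p = 0.048). For these 3 genes no stress array reached the lowest handled array, and the groups were likewise apart, in either direction, for 14.2% of all probe sets. The calls were few and near the threshold, and none of the 3 was left after median centring (median -0.16, 19 of 23 below 0), in the fit of the hippocampus arrays alone, without a variance trend, without stress array 2 or 3, or without any 1 of the handled arrays.

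The main structural myelin genes were not called. Mbp, the gene of myelin basic protein, measured 7724, 8681 and 7221 against 10388, 8885 and 8095 (-0.21, adjusted p = 0.274), and Mobp had -0.18 (adjusted p = 0.284). Mag, an adhesion protein of the inner myelin layer, had -0.37 (adjusted p = 0.133), and Sox10, the transcription factor of the lineage, -0.43 (adjusted p = 0.232). Lpar1, the lysophosphatidic acid receptor that oligodendrocytes express, is no member of the list and is named here after its values were seen. It measured 922, 893 and 940 against 1321, 1316 and 1322, and fell by 0.52 (SE 0.07, adjusted p = 5.77e-04). It also fell in amygdala (-0.34, adjusted p = 0.0111) and cortex (-0.40, adjusted p = 0.00954). The summed intensity of all 26 oligodendrocyte markers on the array was 25522 to 28363 under stress and 29908 to 32518 in handled rats. In amygdala and cortex the list's medians were -0.05 and -0.06.

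**Figure D4:**
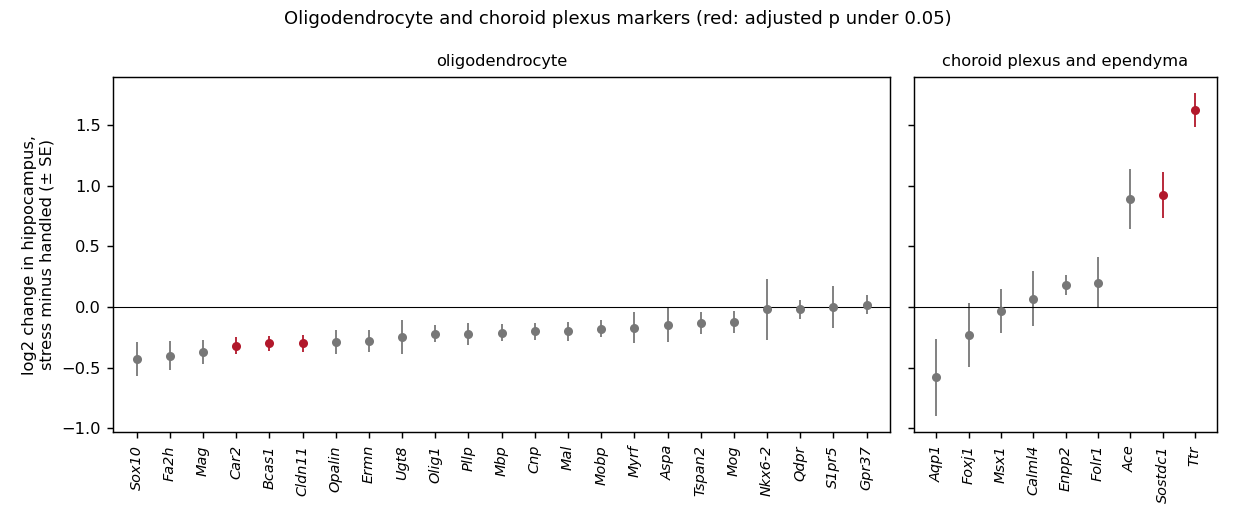
Log2 change in hippocampus (stress minus handled, ± SE) of the tested markers of oligodendrocytes and of choroid plexus and ependyma. Red points passed an adjusted p of 0.05. Of the 23 oligodendrocyte markers 22 lie below 0, with Car2, Bcas1 and Cldn11 called, and among the choroid plexus markers Ttr and Sostdc1 are called above 0.

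Other glial and vascular groups gave no call. None of 14 astrocyte markers passed in limma (2 at an unadjusted p under 0.05), with a median of -0.01. Gfap, the intermediate filament of astrocytes, came nearest at 2636, 2919 and 2549 against 3236, 3177 and 3283 (-0.26, SE 0.06, adjusted p = 0.0591). Hepacam, an astrocyte adhesion protein outside that list, fell by 0.53 (SE 0.11, adjusted p = 0.0408) in 1 of its 2 probe sets, the other standing at -0.01. None of 11 microglia and complement genes and none of 5 markers of oligodendrocyte precursors was called, with 0 and 1 at an unadjusted p under 0.05. Among 14 meningeal fibroblast markers 1 fell, Ptgds, the prostaglandin D synthase of meninges, choroid plexus and oligodendrocytes, at 1214, 1181 and 1217 against 1624, 1446 and 1536 (-0.35, SE 0.06, adjusted p = 0.00538). The collagen genes Col3a1 (-0.64, adjusted p = 0.103) and Col1a2 (-0.60, adjusted p = 0.114) were not called. The list's median was -0.00.

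Corticosteroid receptors and their target genes gave no call. Of 22 tested in limma, 0 had an unadjusted p under 0.05, the median log2 change was -0.03 and the values ran from -0.38 to 0.19. Nr3c1, the glucocorticoid receptor, measured 379, 436 and 342 under stress against 380, 356 and 436 (-0.02, SE 0.09). Nr3c2, the mineralocorticoid receptor, measured 1077, 1091 and 1076 against 1211, 1020 and 1110 (-0.04, SE 0.08). The groups overlapped for both receptors. Fkbp5, a chaperone induced by glucocorticoids, had a log2 change of -0.14 (SE 0.12) with overlapping groups. Sgk1, a kinase induced by them, measured 887, 888 and 963 against 785, 879 and 829 (0.13, SE 0.07, adjusted p = 0.485). Tsc22d3, which encodes the glucocorticoid-induced leucine zipper, stood at -0.00 (SE 0.08), and Crh, the corticotropin-releasing hormone gene, was dim at 44.9, 30.6 and 33.9 against 29.4, 31.3 and 35.0.

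Among 19 immediate early genes, which neurons switch on after activity, Jund alone was called. Jund encodes a member of the AP-1 family that is steadily expressed, and it measured 1911, 1802 and 1863 against 2501, 2424 and 2381, a fall of 0.39 (SE 0.07, adjusted p = 0.0171). It also fell in amygdala, by 0.59 (adjusted p = 7.41e-05). Fos was at 66.9, 31.6 and 46.4 against 52.1, 36.7 and 58.7 (-0.04, SE 0.18), with overlapping groups. Ptgs2, the inducible cyclooxygenase of excitatory neurons, measured 381, 350 and 397 against 213, 289 and 273 (0.52, SE 0.13, adjusted p = 0.102) and was not called. Bdnf, the main neurotrophin of the hippocampus, measured 449, 456 and 561 against 464, 427 and 412 (0.16, adjusted p = 0.651), and none of 7 neurotrophin and Trk receptor genes passed, nor had an unadjusted p under 0.05 in limma.

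Of 20 circadian clock genes 2 were called higher and none lower, where 0.137% and 0.263% of all tested genes were. Without adjustment the list was mixed, with 4 genes higher and 2 lower at a p under 0.05 in limma. Dbp, a PAR-domain transcription factor driven by CLOCK and BMAL1, measured 257, 297 and 253 under stress against 184, 186 and 198 (log2 change 0.47, SE 0.09, adjusted p = 0.02). Nr1d2, the repressor REV-ERB beta of the clock's feedback loop, measured 560, 582 and 568 against 445, 470 and 434 (0.33, SE 0.06, adjusted p = 0.00931). Both also rose in amygdala, Dbp by 0.36 (adjusted p = 0.0344) and Nr1d2 by 0.28 (adjusted p = 0.0109). The core genes Clock (-0.05), Bmal1 (-0.05), Per2 (0.06) and Cry1 (-0.23) were not called, nor was Nr1d1 (-0.11). Hlf, a PAR-domain relative of Dbp, had -0.24 in hippocampus (adjusted p = 0.327) and fell by 0.42 in amygdala (adjusted p = 0.0138), and the list's median was 0.08. Neither call was left without stress array 2, in the fit of the hippocampus arrays alone or without a variance trend, and Dbp was also lost without handled array 1 or 2.

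The upstream regions of Dbp and Nr1d2 are shown because these genes rose together, and that of Jund because it was the called gene whose region held a cyclic AMP response element. The sequences are the 250 bases before the RefSeq start of each gene in build GRCr8, written 5′ to 3′ along the gene, at chr1:105312006-105312255, plus strand, chr15:9954784-9955033, plus strand and chr16:18769772-18770021, minus strand. Capitals mark a match to 1 of 3 motifs searched on both strands, the E-box CACGTG of clock proteins, the D-box TTATGTAA of Dbp and its relatives, and the cyclic AMP response element TGACGTCA.
Dbp: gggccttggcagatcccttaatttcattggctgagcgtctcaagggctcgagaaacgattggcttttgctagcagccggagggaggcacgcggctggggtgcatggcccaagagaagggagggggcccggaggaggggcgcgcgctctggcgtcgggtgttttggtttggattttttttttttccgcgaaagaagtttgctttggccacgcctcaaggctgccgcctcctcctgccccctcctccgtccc
Nr1d2: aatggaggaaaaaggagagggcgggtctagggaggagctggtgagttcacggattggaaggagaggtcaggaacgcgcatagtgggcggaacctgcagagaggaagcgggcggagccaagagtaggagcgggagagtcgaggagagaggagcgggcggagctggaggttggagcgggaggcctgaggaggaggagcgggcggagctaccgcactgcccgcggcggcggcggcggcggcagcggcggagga
Jund: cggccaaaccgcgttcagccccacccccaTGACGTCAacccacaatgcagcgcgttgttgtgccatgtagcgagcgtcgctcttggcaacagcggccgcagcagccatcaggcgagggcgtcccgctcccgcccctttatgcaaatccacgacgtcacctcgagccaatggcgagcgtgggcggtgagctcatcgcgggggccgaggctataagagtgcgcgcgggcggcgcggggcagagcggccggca
The Jund match begins 221 bases before the start. Of all 33469 upstream regions of this length, 5.59% held the E-box, 0.828% the D-box and 1.59% the cyclic AMP response element. Of the 45 called genes, 33 had an entry. The E-box was found in 4 of these (Cadps2, Dnmt3a, Ildr2 and Pip5k1a), the D-box in Ptgds and the cyclic AMP response element in Jund. A match is a description of these letters, and no match says only that they are not in this window.

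Neurotransmitter and excitability genes gave few calls. Htr2c, the serotonin 2C receptor, measured 152, 211 and 150 under stress against 114, 99.2 and 117 and rose by 0.56 (SE 0.09, adjusted p = 0.00617), alone among 7 serotonin receptor genes. Stress array 2 was the highest, and the groups did not overlap. The same probe set rose by 0.56 in cortex (adjusted p = 0.00425), but the second Htr2c probe set stood at -0.04 in hippocampus. Scn2b, the beta 2 subunit of neuronal sodium channels, measured 1654, 1620 and 1501 against 1291, 1184 and 1285 and rose by 0.34 (SE 0.07, adjusted p = 0.0231), the call among 24 sodium, calcium and HCN channel genes. None of 31 potassium channel genes, 24 glutamate receptors and transporters, 14 GABA genes, 11 adrenergic, dopamine and muscarinic receptors or 38 synapse and dendrite genes was called. At an unadjusted p under 0.05 in limma these lists held 8, 4, 3, 1 and 6 genes. Grin2b, an NMDA receptor subunit, was at -0.51 (adjusted p = 0.249), and Gabbr2, a GABA-B receptor subunit, at -0.25 (adjusted p = 0.126).

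Of 24 neuropeptide and peptide receptor genes none was called in limma, and 3 had an unadjusted p under 0.05. Nts, the neurotensin gene, measured 104, 89.5 and 82.8 under stress against 144, 210 and 170, with the groups apart (-0.81, SE 0.19, adjusted p = 0.0705). Its hippocampus change lay below that in cortex, where it rose by 0.89, by 1.70 (SE 0.27, adjusted p = 0.00592). Interneuron markers (0 of 12) and markers of newborn neurons (0 of 10) also held no call, with 3 and 2 genes at an unadjusted p under 0.05. Gad1, which makes GABA, measured 1723, 1695 and 1603 against 1503, 1451 and 1497 (0.17, SE 0.05, adjusted p = 0.184), and Calb2, a marker of immature granule cells and some interneurons, had -0.41 (adjusted p = 0.384).

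Dnmt3a, a de novo DNA methyltransferase, was the call among 31 DNA methylation and chromatin genes. It measured 65.8, 32.8 and 46.5 against 93.8, 92.3 and 90.3 and fell by 0.78 (SE 0.17, adjusted p = 0.0444). Its second probe set stood at -0.55 (adjusted p = 0.396). Stress array 2 was the lowest, and the call held in 2 of 15 alternatives. In amygdala Dnmt3a fell by 1.27 (adjusted p = 1.50e-04). Topbp1, a scaffold of the DNA replication checkpoint, had the largest fall of any named gene, at 12.7, 28.9 and 22.1 against 61.7, 67.5 and 65.0 (-1.14, SE 0.20, adjusted p = 0.00745), while its second probe set stood at 0.27 (adjusted p = 0.598).

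The housekeeping lists moved little. Of 42 ribosomal protein genes 37 lay below 0 with a median of -0.09, none was called in limma, 13 were lower and 0 higher at an unadjusted p under 0.05, and median centring brought the median to -0.04. Rps28 was nearest to a call (-0.31, adjusted p = 0.0854). None of 75 respiratory chain genes passed, with a median of -0.02, and none of 20 heat shock and chaperone genes, where Cryab was nearest (-0.46, adjusted p = 0.0846). At an unadjusted p under 0.05 they held 7 and 4 genes. Of 18 antigen presentation and interferon-induced genes 14 lay above 0 with a median of 0.14, none was called, and 3 were higher at an unadjusted p under 0.05. RT1-T24-3, a class I gene of the rat major histocompatibility complex, measured 110, 135 and 111 against 48.2, 69.7 and 84.1 (0.71, SE 0.16, adjusted p = 0.0542). Of 18 glycolysis and glucose uptake genes 16 lay above 0, by small amounts (median 0.04, none called, 2 at an unadjusted p under 0.05). Among all tested genes 51.7% lay above 0. Markers of neighbouring tissue, thalamus and habenula (0 of 9), striatum (0 of 11) and neocortex (0 of 15), held no call, with 2, 1 and 4 genes at an unadjusted p under 0.05. Of 15 retinoid and thyroid hormone genes Ttr was the call, and the list's median was -0.11.

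**Figure D5:**
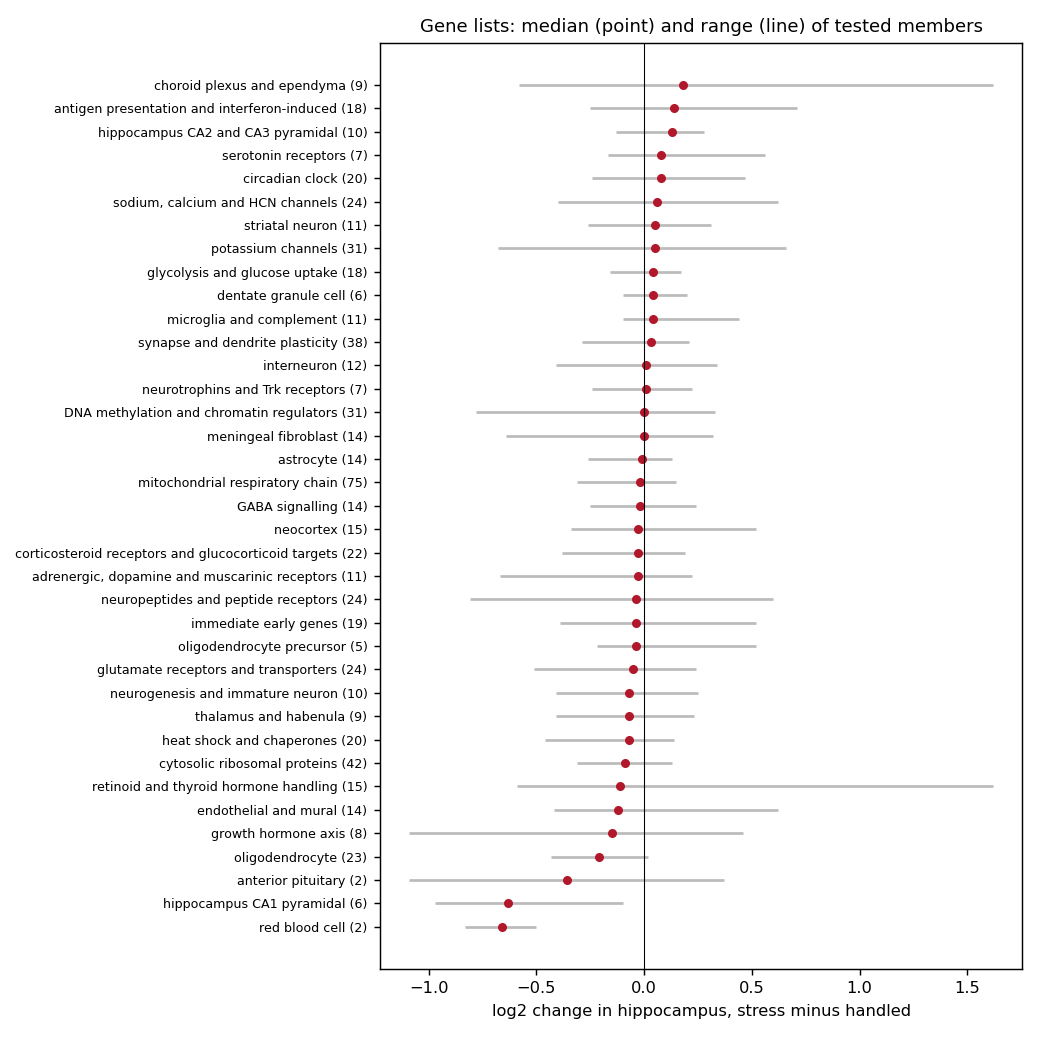
Median (point) and range (line) of the log2 change in hippocampus, stress minus handled, over the tested members of each of the 37 gene lists, with the number of tested members in parentheses. The lowest medians are those of the red blood cell (-0.66, 2 members) and CA1 (-0.63, 6 members) lists, both with no member above 0, followed by anterior pituitary (-0.36, 2 members) and oligodendrocyte (-0.21).

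The other called genes had a range of roles. Among those that rose were Pip5k1a, a kinase that makes the lipid PIP2 (208, 241 and 246 against 149, 113 and 138, log2 change 0.73, adjusted p = 0.00617), and Rprd1b and Cdc73, which act on RNA polymerase II (0.70 and 0.56). Ildr2 (0.56), Lrrc8b, a subunit of volume-regulated anion channels (0.52), Itih3, a heavy chain of the inter-alpha-trypsin inhibitor family (0.39), the sorting nexin Snx4 (0.36), Arpp21, a cyclic AMP-regulated phosphoprotein (0.30), and the inositol transporter Slc2a13 (0.27) completed the 15. Among those that fell were Rtbdn, the retbindin gene (-0.92), Pnma8b (-0.73) and Crim1, a membrane protein that binds BMPs (-0.52). Named after their values were seen, the rest were Rgs3 (-0.50), Ensa, an inhibitor of protein phosphatase 2A (-0.44), the adaptor Gab1 (-0.44), the glutathione transferase Gstt3 (-0.42), the endosomal sorting gene Snx27 (-0.41), the splicing gene Srrm2 (-0.39), Inka2 (-0.38) and the guanine deaminase Gda (-0.34), with Cadps2 (-0.49) and Lpar1 given above. Of the 45 genes, 20 had more than 1 tested probe set, and for 8 of these another probe set had the opposite sign. The 8 were Topbp1, Pnma8b, Htr2c, Ensa, Snx27, Srrm2, Gda and Arpp21. Only for Gpr161 was a further probe set called. In none of the 67 called probe sets did the stress and handled arrays overlap, as was the case for 14.2% of all probe sets tested.

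Most of these genes had the same sign in the other regions, whose arrays entered their choice through the shared estimate of the spread but not through the hippocampus means. With the hippocampus arrays alone 9 of the 45 genes were called. In cortex 38 of the 45 had the same sign, against 59.7% of all tested genes, and 10 were called, all in the same direction, where 0.449% of all genes were called. In amygdala 37 had the same sign, against 56.6% of all tested genes, and 18 were called, 17 in the same direction, where 1.91% of all genes were called. Hbb, Lpar1, Ensa, Inka2 and Gda fell, and Cdc73 and Lrrc8b rose, in every region, each read by 1 probe set. In hippocampus the other probe sets of these genes were not called, at 0.13 and -0.03 for Ensa, 0.02 for Gda and -0.44 for Lpar1. The median log2 change of the 30 lower genes was -0.52 in hippocampus, -0.23 in amygdala and -0.18 in cortex. For the 15 higher genes it was 0.52, 0.22 and 0.20. The hippocampus values chose these genes and so are a description. If the same rats gave all 3 regions, the arrays of different regions are not independent.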

How the data were processed

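The table deposited by the authors gives a linear intensity for each of 31099 probe sets on 18 arrays. Arrays had been brought to 1 mean by the authors, as the values show: with 2% trimmed per tail it was 150.04 or 150.05 throughout. The software that summarised the probes is not given in the sources used here. Of the probe sets 20832 had 1 gene symbol, through the platform table and RefSeq, 436 had several and 9831 none, and the last 2 kinds stay unnamed. No test used the 57 control probe sets.

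Values were taken as log2(intensity + 16). A filter at the 40th percentile of mean log2 level left 18625 probe sets with 10256 genes. Means of the 6 groups were fitted with limma 3.58.1 in R 4.3.3 (12 residual and 10.2 prior degrees of freedom, variance trend), two-sided, with Benjamini-Hochberg adjustment within each contrast and called below 0.05. An exact permutation test of 3 against 3 arrays cannot go below 0.1 and was not used. The fit was tested on simulated data. Lists read a gene by its tested probe set of highest mean. Errors beside log2 changes are standard errors. The number of arrays limits the precision.

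The members and lists were chosen with earlier results of these data known. Named genes are up to 15 per direction with the largest change among called, non-overlapping probe sets, every called list member, 8 stress genes, up to 3 uncalled members per list by lowest p, and up to 5 per direction for differences between regions, with further members given as examples. Same-numbered stress and handled arrays did not deviate together (correlations of -0.032, -0.002 and -0.001), so the numbers were not taken to pair them. Alternatives were pseudocounts of 1 and 64, no filter, a filter at the 60th percentile, median centring, quantile normalization, hippocampus arrays alone, no variance trend, a replicate block and leaving out each hippocampus array.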

Additional observations from a re-analysis of the deposited data

Results flagged for a closer look

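Several genes were singled out because the test of the difference between regions was called, that is, their stress change in hippocampus differed from that in cortex or amygdala (limma, adjusted over 18625 probe sets). Against cortex, the difference (hippocampus minus cortex) was 1.67 for Ttr, -1.04 for Pou3f1, -0.71 for Wfs1, -0.76 for Ccn3 and -1.70 for Nts, where the hippocampus change was the larger in size except for Nts (-0.81 in hippocampus and 0.89 in cortex).

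For the following genes the change was larger in size in cortex. Igf2, a growth factor of the meninges, changed by 0.17 in hippocampus and -1.53 in cortex (difference 1.69, adjusted p = 2.50e-05), and its binding protein Igfbp2 by 0.21 and -1.28 (difference 1.48, adjusted p = 7.36e-05). The difference was 1.39 for Cd74, the invariant chain of class II antigen presentation (0.16 and -1.23), 0.92 for the retinoic acid hydroxylase Cyp26b1 (0.11 and -0.81), 0.78 for Ptgds (-0.35 and -1.12, called lower in both regions) and 0.59 for Enpp2 (0.18 and -0.41). The meningeal fibroblast list, which holds Igf2, Igfbp2 and Ptgds, had a median of -0.89 in cortex and -0.00 in hippocampus. For Ywhab, a 14-3-3 protein, the difference was -0.48 in 1 of its 2 probe sets (-0.13 and 0.35).

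Against amygdala, the difference (hippocampus minus amygdala) was -2.16 for Gh1, 1.17 for Ttr and -0.99 for Wfs1. For Ahi1, a protein of the ciliary base, it was 0.97 (-0.21 in hippocampus and -1.18 in amygdala, adjusted p = 0.028). The adhesion protein Lsamp had 0.76 (-0.20 and -0.95), the synaptic vesicle protein Sv2b 0.71 (0.13 and -0.58) and Scn4b, a sodium channel subunit rich in striatum, -0.91 (0.05 and 0.96, adjusted p = 0.0498).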

How the results depend on the processing

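The count of called probe sets for stress minus handled in hippocampus (67) was 20 with the hippocampus arrays alone and 32 without a variance trend, and lay between 27 and 70 when 1 hippocampus array was left out. Under every alternative run together, 12 probe sets stayed called, among them those of 5 genes (Ttr, Hbb, Lpar1, Pou3f1 and Wfs1), and Gh1 was called wherever it was tested. No called gene changed sign. The count of differences from amygdala (9) was 3 without the filter, 16 with the filter at the 60th percentile, 15 with median centring and 3 without a variance trend, and lay between 3 and 18 with 1 array left out. The differences from cortex (16) lay between 11 and 16 with 1 array left out. The cause of these shifts was not tested. The replicate block, which pairs arrays by number, gave 61 calls in hippocampus, 57 of them shared with the fit without it. Median centring shifted the log2 change of all probe sets by 0.047 and took away 16 of the 45 called genes. Dim transcripts have little signal over background, so many markers of rare cells could not be tested.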
